A study of Apis mellifera with 24 samples.

Results

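Reads of piRNA length that lie in the sense direction on transposable elements (TEs) and on genes were compared between honey bee semen and ovaries. Of 34760 annotated TEs, 1045 had at least 20 sense counts in either tissue and were compared, and of 15313 genes 1257 were. At this limit, 28 TEs and 56 genes had a highest count of exactly 20, and 23 TEs and 56 genes fell just outside with 19. Few features reached the limit in semen, where 55 TEs and 385 genes did, against 1029 TEs and 1080 genes in ovaries, and 39 TEs and 208 genes reached it in both.

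The study sequenced small RNAs of Apis mellifera reproductive tissues to ask which of them parents could pass to offspring. The ovaries came from adult laying queens (caste queen, 3 libraries in the labels) and the semen from adult drones (2 libraries), and the labels list no mutation, strain or treatment for either. The methods describe semen pooled from several drones of each of a few colonies, so a semen library is not a single male. The labels place the ovary libraries on 1 flow cell and the semen libraries on a different one, so tissue and sequencing run cannot be told apart.

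Piwi-interacting RNAs are small RNAs that guide Piwi proteins to matching transcripts, and in animal gonads they are best known for silencing TEs. Many are cut from long transcripts of genomic regions rich in TE remnants, called piRNA clusters. A read antisense to a TE can pair with its transcript, whereas a sense read has the sequence of the transcript itself. LARDs and TRIMs are non-coding remnants of retrotransposons (class I), DTX is the code of class II (DNA) transposons with terminal inverted repeats and no assigned superfamily, and "potential host gene" marks repeats that resemble genes of the bee.

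The deposited values are raw counts in a single column for each tissue, so there is no spread between replicates, and every value is the authors' pooled value with no test. The 95% intervals below (Wilson for shares, exact binomial for ratios) describe counting error alone, and since the libraries were amplified with no molecular identifiers, copies of a molecule were counted as separate reads. The semen column held 90962 sense counts on TEs and 117292 on genes, and the ovary column 51173095 and 3261964. At this depth a feature at 0 in semen could still have a share of 0.0033% of the TE sense counts, or 0.00256% of the gene sense counts. Reads annotated as other known RNAs had been removed before counting, and whether the remaining reads are piRNAs, rather than other RNA of that length, was not tested.

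TEs took a smaller share of the sense counts in semen than in ovaries. Of TE plus gene sense counts, they held 43.7% in semen (95% interval 43.5 to 43.9) and 94.0% in ovaries. A read can be counted on both a TE and a gene, and reads on neither are left out. Genes that overlap a TE held 97.1% of the gene sense counts in ovaries and 32.8% in semen. The semen share rested on a single element: without ms43364 it was 8.05%, while the ovary share without its own leading TE was 92.9%. Gene counts were kept whole there, although GB47541 alone held 46.4% of those in semen and GB50405 59.9% in ovaries.

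The TE ms43364, a DTX element on the unplaced scaffold GroupUn98 (15657 to 16304 in Amel 4.5, minus strand, in separate stretches), carried 80687 sense counts in semen and 1608 in ovaries. This was 88.7% of the TE sense counts of semen (95% interval 88.5 to 88.9) and 0.00314% of those of ovaries. In raw counts the element was 50.2 times as high in semen, although the ovary column held far more counts in all. No read was antisense to it in semen and 7 were in ovaries. The full name of ms43364 also carries the tags "incomp" and "chim" (incomplete and chimeric). Its class was read from that name alone and was not tested.

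A short R1 element of the same scaffold, R1B_DAn (21744 to 21806, minus strand), had 372 sense counts in semen and 160 in ovaries. R1 and R2 are retrotransposons that insert into ribosomal RNA genes. The other R1 entries that lie wholly on the scaffold did not share this pattern, since each had 0 sense counts in semen. R1E_NGi (joined copies, 17927 to 18353), for example, had 288 in ovaries. The LINE entry LIN9_SM and the gene GB43330, which lie across or beside ms43364 on the opposite strand, had 0 sense counts in both tissues and could not be compared. Their antisense counts were 6582 and 6750 in semen and 616 and 768 in ovaries, so the reads of this stretch were on the strand of ms43364. The gene GB43331 of the same scaffold (26478 to 32513), had 0 sense counts in semen and 31 in ovaries, beside 17583 and 2513 antisense counts.

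In ovaries the sense counts lay mainly on LARDs of a single stretch of chromosome 16. The element with the most was ms35558 (277669 to 280751, plus strand), with 8272632 sense counts in ovaries, 16.2% of the TE total, and 1005 in semen. It was followed by ms35559 with 6179623 against 820, ms35556 with 6171970 against 865 and ms35554 with 5557793 against 690. These elements also took second place and below in semen, after ms43364.

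The LARDs of this piRNA cluster held 86.1% of the TE sense counts in ovaries and 6.22% in semen. Without ms43364 their share in semen was 55.1% (95% interval 54.1 to 56.1), and LARDs of every location then made up 67.7% of the semen counts against 88.6% in ovaries. Class II elements held 90.9% of the class-assigned TE sense counts in semen (95% interval 90.7 to 91.1) and 5.86% in ovaries. Without ms43364 the semen value was 12.8%.

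**Figure D1:**
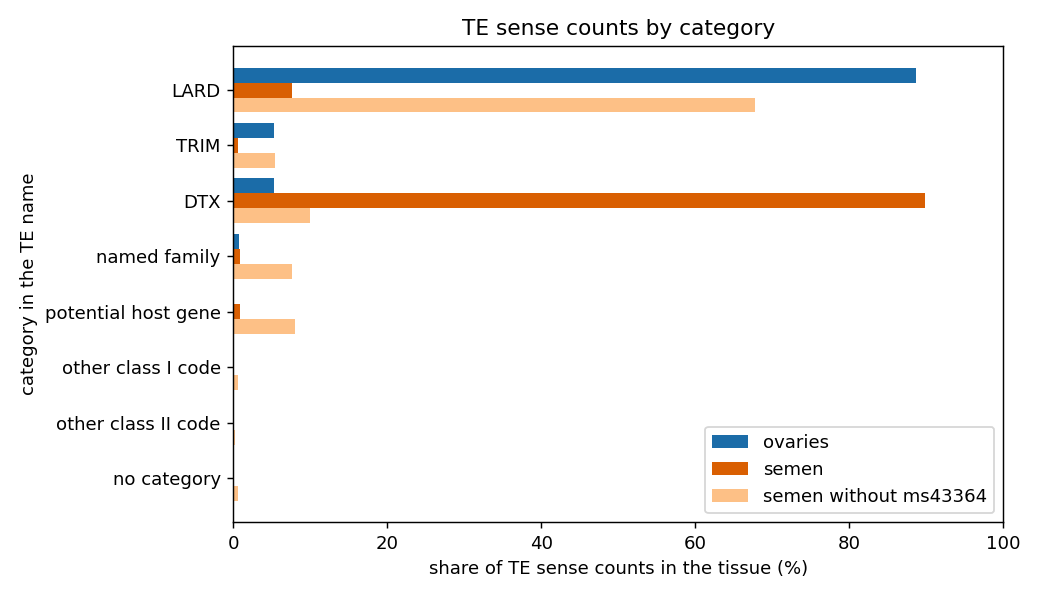
Share of the TE sense counts of each tissue, in percent, by the category in the TE name, with 1 bar for ovaries, 1 for semen and 1 for semen without ms43364. DTX elements take 89.8% of the semen counts and 9.89% once ms43364 is left out, while LARDs go from 7.65% to 67.7%.

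The ratio between the tissues was nearly constant along the chromosome 16 stretch. The 11 LARDs with at least 20 counts in both tissues ran from 262751 to 288618 on the plus strand, with 6229 to 10631 sense counts in ovaries for each count in semen, a 1.71-fold range. For the 9 of them with over 100 counts in semen the ratio was 6993 to 9831. Per kilobase of element, those 9 had 1382714 to 3398036 counts in ovaries and 176 to 428 in semen. Across the 11, Spearman's rho between the counts of both tissues was 0.95, given as a description, since the elements lie end to end, differ in length and share their libraries. Antisense reads on them numbered 8 in ovaries and 0 in semen, against 43478149 and 5551 sense reads on the 9 largest.

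TEs in other clusters had lower and more varied ratios. The 13 TEs of other listed clusters with 20 counts in both tissues had 291 to 8336 ovary counts for each semen count, with a median of 2939. The TRIMs ms39712 and ms39718 of GroupUn23 were near the chromosome 16 LARDs at 8336 and 7425, and the DTX elements ms46327 and ms39232 had 917 and 291. The DTX elements ms35566 and ms35592 of the chromosome 16 cluster itself were also lower than its LARDs, at 760 (95% interval 588 to 1001) and 2848 (2314 to 3547).

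Among TEs with 20 counts in both tissues, those outside the listed clusters had far lower ratios. The 13 TEs there with 20 counts in both tissues had 0.0199 to 1.62 ovary counts for each semen count, with a median of 0.587, and 10 of the 13 had more reads in semen before any scaling. Among these 39 TEs the ranges inside and outside clusters did not overlap, but the limit in semen keeps out elements that are high in ovaries alone. Of all 459 TEs compared outside clusters, 375 were at 0 in semen, 134 were called toward ovaries after the scaling given below and 28 toward semen. Among TEs counted as inside clusters, 5S_DM had 164 counts in semen and 12 in ovaries, a ratio of 0.0732, below most of those outside. This entry of the 5S family joins 43 blocks on several chromosomes and shares bases with clusters 150 and 96. Whether its reads lie in those 2 was not tested. The study had called the listed clusters on its own libraries, in part on the reads counted here, so cluster membership is no independent evidence of a high count.

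**Figure D2:**
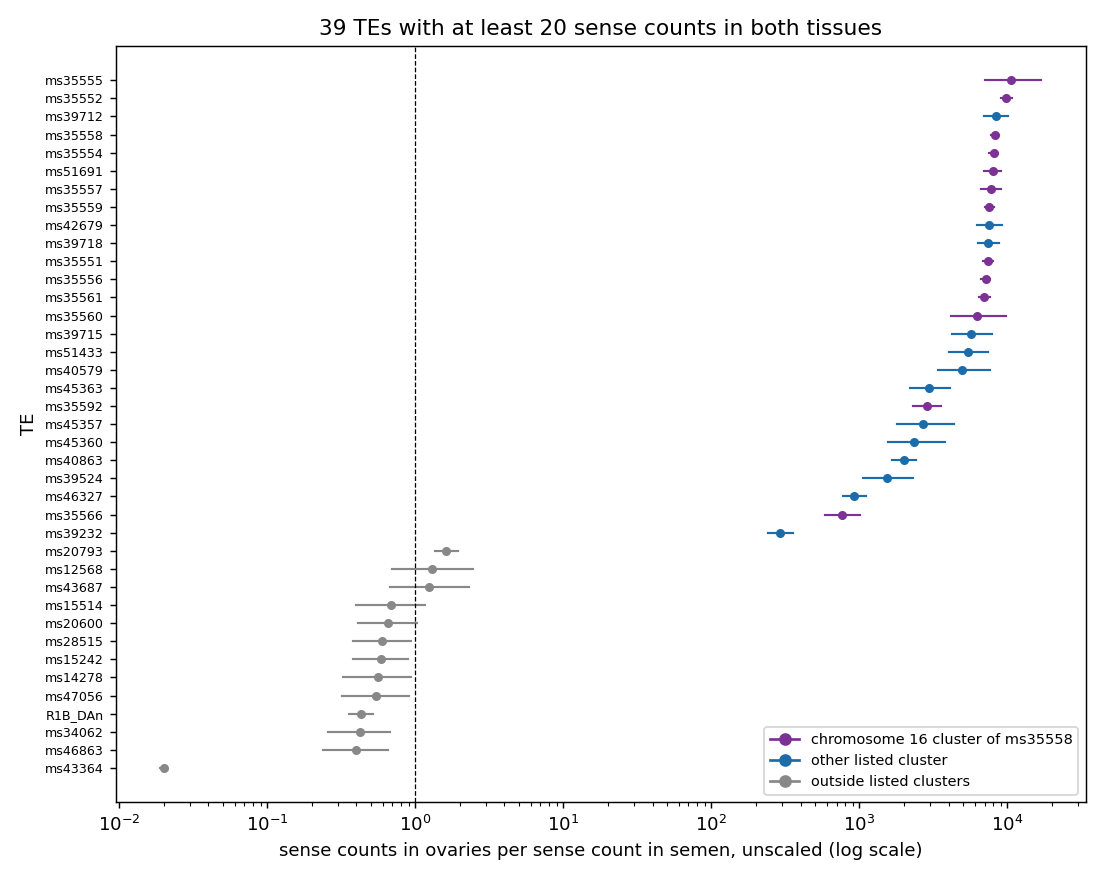
Unscaled sense counts in ovaries for each sense count in semen (log axis) for the 39 TEs with at least 20 counts in both tissues, with 95% counting intervals as lines. The 26 TEs in listed clusters lie at 291 or higher and the 13 outside lie at 1.62 or lower.

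For single features the counts were scaled with the TMM method of edgeR, which assumes that the majority of features do not differ, and a feature was called at over 5-fold. Here the scale decides the result, because the ovary column held 562.6 times the TE sense counts of semen while the TMM scale was 9.29 (27.8 and 1.84 for genes). The median TE lay at -2.28 (log2 of semen over ovaries) after TMM and at 3.64 after scaling by table totals. The features called under each of 5 scalings (TMM, table totals, DESeq2 size factors, no scaling, 1 TMM factor for both tables) are therefore given beside the TMM calls. For calls and ranks a count under 3 was set to 3, which makes the fold a lower bound. Folds against 1 to 3 counts are printed as observed, with their counting interval.

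After TMM, 519 of 1045 TEs (49.7%) passed 5-fold toward ovaries and 29 (2.78%) toward semen. Under each of the 5 scalings, 76 TEs (7.27%) were higher in ovaries and 7 (0.67%) in semen. The 519 TEs held 99.9% of the ovarian TE sense counts and the 29 held 90.7% of those in semen. Of the compared TEs, 774 had no sense count in semen and 3 had none in ovaries. All 76 elements that were higher in ovaries under each scaling were in listed clusters, with 8831 to 8272632 counts there, and so were 586 of the 1045 compared. At a totals scale of 562.6 only TEs with very high ovary counts can be called under each scaling. Since the clusters were called in part on these reads, the overlap was largely fixed in advance.

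**Figure D3:**
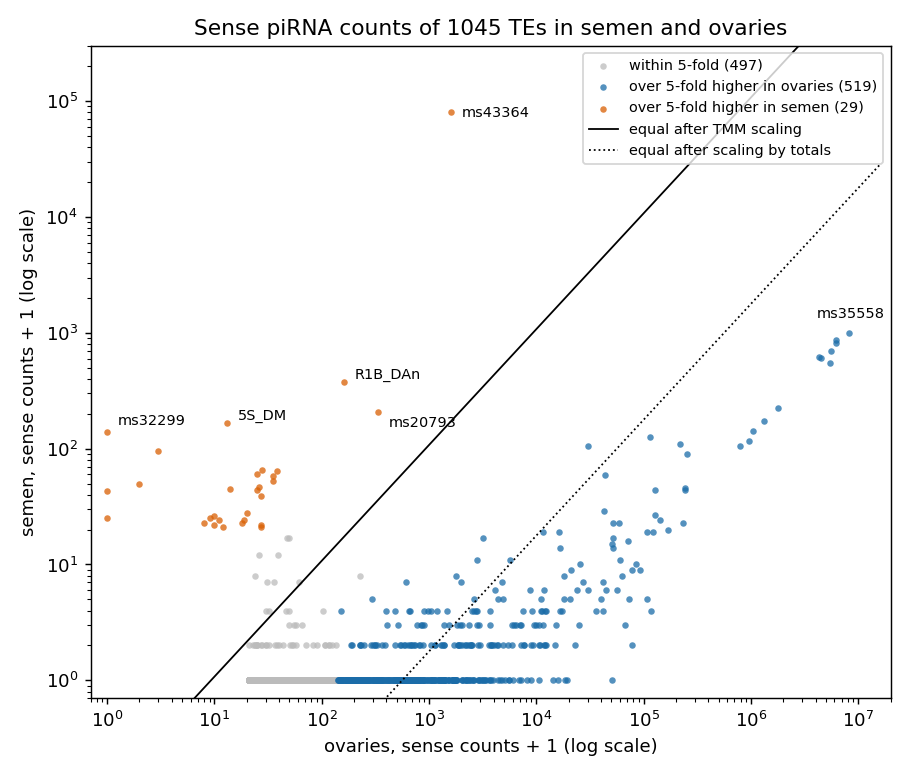
Sense counts plus 1 of the 1045 compared TEs in ovaries (x axis) and semen (y axis), both on log scales, coloured by the call after TMM scaling. The points for ms43364 (80687 in semen, 1608 in ovaries) and for ms35558 (1005 and 8272632) are the highest in semen and in ovaries, the latter at the end of a run of chromosome 16 LARDs, and the solid and dotted lines of equal level differ by the choice of scale.

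With counts under 3 set to 3, the TEs with the largest scaled differences toward ovaries were elements of unplaced scaffolds with 1 to 4 counts in semen. The DTX element ms39253 (GroupUn16, 29991 to 30185) had 117893 sense counts in ovaries and 3 in semen, which is 4230-fold (counting interval 1447 to 20513). The LARDs ms44550 and ms40598 had 77925 against 1 and 67519 against 2. As observed these are 8388-fold (1505 to 331322) and 3634-fold (1006 to 30008), and with the floor of 3 at least 2796-fold and 2423-fold. The DTX elements ms42678 and ms44552 had 108182 and 72977 in ovaries and 4 each in semen. The LARD ms35558 was 886-fold higher (833 to 944).

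By category, LARDs and DTX elements had medians near that of all TEs. Of 312 LARDs compared, 159 were higher in ovaries and 8 in semen (median log2 -2.41), 35 and 1 of them under each scaling. Of 328 DTX elements, 170 and 4 were (median -2.47), 22 and 1 under each scaling, and of 107 TRIMs, 47 and 1 (median -1.39), 8 and 1 under each scaling. All compared TEs had a median of -2.28. LARDs in listed clusters numbered 159, of which 103 were higher in ovaries and 0 in semen (median -4.43), 35 of them under each scaling. Of 153 LARDs outside clusters, 56 were higher in ovaries and 8 in semen (median -1.11), 0 and 1 under each scaling. TEs of every category were similar. In clusters 65.7% were higher in ovaries (median -3.85), against 64.8% of LARDs. Outside, 29.2% were (median -0.954), against 36.6% of LARDs.

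Among named families, Tc1-Mariner DNA transposons had 289033 sense counts in ovaries and 114 in semen over 249 entries, and 66 of 99 compared were higher in ovaries (5 under each scaling), 0 in semen. The R2 family had 8943 and 14 over 8 entries, with 6 of 7 compared higher in ovaries, 0 of them under each scaling. The entry R2Amel had 2780 against 10, which is 29.9-fold (16.2 to 62.5) after TMM, but the direction turned under scaling by table totals. R2 reads lay mainly antisense in both tissues, with 290871 in ovaries and 6816 in semen (sense shares 2.98% and 0.205%). In semen 6582 of these were on the entry LIN9_SM described above, and without it 14 sense and 234 antisense counts remained, a sense share of 5.65% (95% interval 3.39 to 9.25), against 2.99% in ovaries. Family names recur over many entries, several of which join copies on different chromosomes, so reads of 1 family may be split among them.

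Repeats marked as potential host genes went the other way after TMM. Of 24 compared, 13 (54.2%) were over 5-fold higher in semen, against 2.78% of all TEs, and 1 was higher in ovaries (median log2 3.20). The 13 had 20 to 95 counts in semen, and 2 of them were called under each scaling. All 13 repeats with at least 20 counts in semen were called, against 29 of 55 such TEs of every category. Apart from the 2, the called repeats had 0.769 to 3 raw semen counts per ovary count. Their calls therefore depend on the filter and on the TE scale of 9.29. The one with the most was ms34465 on chromosome 15 (6390028 to 6390407, minus strand), with 95 counts in semen and 2 in ovaries, which is 441-fold (119 to 3697), and the other one called under each scaling was ms6247 on chromosome 2, with 49 against 1 (455-fold, 78.0 to 18342). A further 6 of the 13 had similar values in both tissues, 38 to 64 in semen and 24 to 34 in ovaries, so whether they are separate sources or copies that share reads was not tested.

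Besides ms43364, ms34465 and ms6247, the TEs called in semen under each scaling were the LARD ms32299 (139 sense counts in semen, 0 in ovaries), the TRIM ms12841 (42 and 0), the named entry 5S_DM (164 and 12) and Coprina_Cc1 (joined copies, a Penelope element, 24 and 0). The 3 elements at 0 in ovaries were at least 430-fold, 130-fold and 74.3-fold higher in semen after TMM, against a floor of 3 counts in ovaries. The R1 element R1B_DAn was 21.6-fold higher after TMM (17.9 to 26.2) and was not called under each scaling.

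These semen calls rested on few reads: without ms43364, the 28 others had 20 to 372 counts in semen (median 42.5), and 4 had 100 or more. Of the 29, 12 (41.4%) lay in a gene on the same strand, in 9 genes in all, against 253 of the 1045 compared (24.2%), and 1 was in a listed cluster, against 586 of the 1045 (56.1%). For 6 of those 12, the gene was itself called higher in semen, whereas 12.6% of all compared genes were. The 6 are TEs and not separate genes, since GB55591 counts for each of ms6558, ms6559 and ms6560. A read can count on both, as 5S_DM had 164 counts in semen and its gene GB47136 had 166. These gene calls are therefore not independent of the TE calls. The TMM scale was 9.29 for TEs and 1.84 for genes, so like counts on a TE and its gene can be called differently. The element ms32299 (chromosome 14, 1564636 to 1564695, minus strand) is in the gene GB48478, described next, so both can count the same reads. The LARDs ms6558, ms6559 and ms6560 (joined copies) lie in 1 gene, GB55591 on chromosome 2 (158 sense counts in semen, 47 in ovaries). The repeat ms20600 lies in GB48058, annotated Ecr (a subunit of the ecdysone receptor), with 52 of the gene's 57 counts in semen and 34 of its 41 in ovaries. By their own scales, ms20600 was 14.2-fold higher in semen, while GB48058 lay at 1.36 (log2 of semen over ovaries) and was not called.

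Genes divided more evenly between the tissues than TEs did after TMM, but not after table totals. After TMM, 158 of 1257 genes (12.6%) passed 5-fold toward semen and 463 (36.8%) toward ovaries. After table totals, 581 genes and 40 TEs were higher in semen, and 71 genes and 76 TEs in ovaries. Under each of the 5 scalings, 115 genes (9.15%) were higher in semen and 71 (5.65%) in ovaries. The median gene lay at -1.86 (log2) after TMM and at 2.06 after table totals. These counts are reads of piRNA length on whole genes, introns included, and not the mRNA level of the genes.

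The gene with the most sense counts in semen was GB47541 (GroupUn63, 1257 to 1409, plus strand), which has no RefSeq gene. It had 54410 in semen, 46.4% of the gene total (95% interval 46.1 to 46.7), and 579 in ovaries, a 173-fold difference after TMM (159 to 188). At 153 bp it is short, with 355621 counts per kilobase in semen, and no read lay antisense to it in either tissue. Without it, the leading gene of semen, GB46019 on chromosome 6, held 6.08% of the rest.

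After GB47541, the gene counts of semen were spread widely. In all, 3 genes held 50% of them, and 892 genes held 90%. The next in rank were GB46019 with 3821 in semen and 734 in ovaries, GB48478 with 3465 and 0, and GB50156 with 3111 and 175. In ovaries, GB50405 alone held over 50% of the counts and 5 genes held 90%. For TEs, 1 element held over 50% of the counts and 3 held 90% in semen, against 4 and 12 in ovaries.

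**Figure D4:**
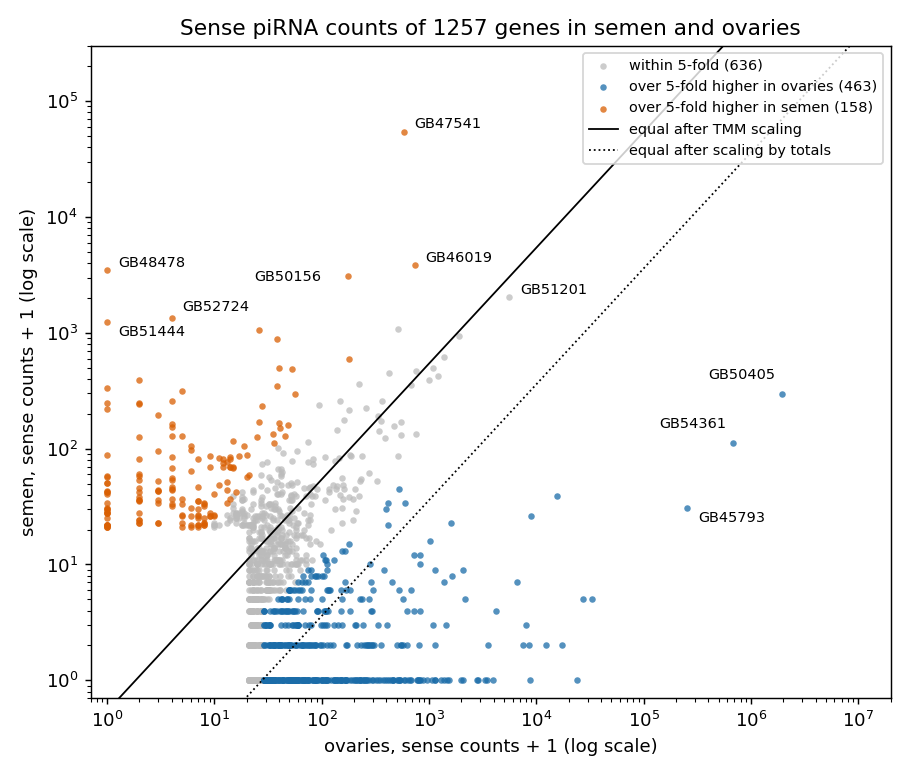
Sense counts plus 1 of the 1257 compared genes in ovaries (x axis) and semen (y axis), both on log scales, coloured by the call after TMM scaling. GB47541 (54410 in semen, 579 in ovaries) stands at the top, GB48478 (3465) and GB51444 (1239) lie at 0 in ovaries, and GB50405 (1952927 in ovaries, 298 in semen) is farthest to the right.

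A number of genes had many sense reads in semen and next to none in the far larger ovary column. GB48478 (LOC100578307, chromosome 14, 1561497 to 1564934, minus strand) had 3465 sense counts in semen and 0 in ovaries, at least 2126-fold higher. GB51444 (LOC724619, GroupUn42, 46341 to 49084) had 1239 and 0, at least 760-fold. GB55813 (chromosome 3, 4630566 to 4631499) had 336 and 0, at least 206-fold. GB52724 (LOC410539, chromosome 14, 7700587 to 7708775) had 1331 and 3, which is 817-fold (279 to 3965), and GB55592 (LOC102656639, chromosome 2) had 387 and 1, which is 712-fold (127 to 28209). GB40658 and GB45850, at 246 and 217 in semen, were also at 0 in ovaries. Of the 158 genes called in semen, 30 had no sense count in ovaries, and 39 had 100 or more in semen.

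Other leading genes of semen were also read in ovaries. GB46019 (LOC724517, 6133964 to 6146362) was 9.58-fold higher in semen (8.85 to 10.4) and GB50156 (LOC726458, chromosome 15) 32.7-fold (28.1 to 38.3). GB42054 (LOC411083, chromosome 5, 6880755 to 6896431, plus strand) had 1064 against 25, which is 78.3-fold (52.8 to 122). GB51201 (LOC552266, chromosome 6) had 2030 in semen and 5586 in ovaries and GB40461 (LOC409165, chromosome 8) 1089 and 517, both within 5-fold. EF1a-F2 (GB41358), a translation elongation factor, had 929 and 1887, a ratio of 0.906 (0.837 to 0.981) after TMM.

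In ovaries, GB50405 (LOC100577492, chromosome 4, 6797133 to 6832301, minus strand) had 1952927 sense counts, 59.9% of the gene total, and 298 in semen, a 3560-fold difference after TMM (3178 to 4002). GB54361 on chromosome 16 followed with 683770 against 112 (3317-fold, 2756 to 4028), and GB45793 (GroupUn62) with 254127 against 30 (4602-fold, 3224 to 6821). GB50868 (GroupUn119), which has the same RefSeq gene as GB54361, LOC726424, had 33305 and 4. GB54564 (GroupUn228) had 24108 and 0, at least 4366-fold. These genes all lie in listed clusters and overlap TEs on their own strand.

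GB46156 and GB42108, with 17305 and 12311 in ovaries and 1 each in semen, and GB45794, with 26993 and 4, lie in clusters as well. GB50800 (LOC410888, chromosome 2), at 15641 against 38, was 224-fold higher in ovaries (163 to 316), and GB49511 (LOC410006, chromosome 10), the only one of the 10 leading ovarian genes outside a listed cluster, had 8825 and 25 (192-fold, 130 to 297).

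Cluster position differed between the genes called in each direction. The clusters were called in part on these reads, and a call toward ovaries under each scaling needs a high ovary count. The difference is therefore no independent evidence. Of the 71 genes higher in ovaries under each scaling, 35 (49.3%) lay in a listed cluster, against 2 of the 115 (1.74%) higher in semen and 96 of all 1257 (7.64%). The 2 in semen were GB46019 and GB50003, the latter with 501 sense counts in semen and 39 in ovaries and named after its values were seen. An annotated TE lay on the same strand within 51 of the 71 (71.8%), 46 of the 115 (40.0%) and 672 of the 1257 (53.5%). On placed chromosomes were 39 of the 71 (54.9%), 105 of the 115 (91.3%) and 1113 of all (88.5%). Clustered genes held 95.3% of the gene sense counts in ovaries and 6.49% in semen.

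Antisense counts, which were not used to choose or call the genes but come from the same libraries, were more frequent in ovaries on genes called toward ovaries. Those genes were selected for high ovary sense counts (28 or more), whereas 30 of the 158 called in semen had 0. The difference is therefore no independent evidence. In ovaries 131 of these 463 genes (28.3%) had 20 or more antisense counts, against 5 of the 158 called in semen (3.16%) and 176 of all 1257 (14.0%). Over the 463 genes the ovary column held 2928160 antisense beside 3183668 sense counts (52.1% sense), against 49.95% sense over all genes there. In semen the 158 genes had 119 antisense counts in all, and the 463 had 18546, of which 17583 lay on GB43331 and 963 on the others. Of the gene counts of semen as a whole, 78.3% were sense, a share that rests largely on single genes. GB47541 held 54410 of the 117292 sense counts, and GB43331 held 17583 of the 32551 antisense counts.

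Of the 158 genes called in semen, 32 overlapped another gene on the opposite strand, and for 11 such pairs the partner had 20 or more antisense counts in semen. The same was not counted for the other compared genes, so these numbers do not set the genes called in semen apart. Reads on GB42054 and those antisense to GB42039 (chromosome 5, 6892749 to 6903646, minus strand) can be the same, since GB42039 had 714 antisense and 0 sense counts in semen. GB54725 (chromosome 13) had 127 sense counts in semen and its partner GB54783 had 132 antisense. GB54725 can therefore not be told apart from an antisense transcript of GB54783 by these counts.

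Genes with a symbol in RefSeq, 66 of those compared, were called about as often as all genes were, with 10 (15.2%) higher in semen and 22 (33.3%) in ovaries (median log2 -1.59 against -1.86). Those higher in semen included both gene models of GlnS, glutamine synthetase, with 128 sense counts in semen and 4 in ovaries for GB45377, and 84 and 3 for GB51371. Acph-1, an acid phosphatase known from bee venom, had 57 and 0. Tpx-4, a thioredoxin peroxidase, had 46 and 3, and CSP3, a chemosensory protein, 23 and 1. Argk, arginine kinase, had 67 and 14, For, a cyclic GMP-dependent protein kinase, 40 and 9, and Ip3k, an inositol kinase, 34 and 6. The chaperone Hsc70-4 had 599 and 178, which is 6.19-fold (5.23 to 7.36), whereas Hsc70-3 with 21 in each tissue, Hsc70-5 with 129 and 544, and Hsp90 with 82 and 145 were within 5-fold. Of the 10, 7 were called under each scaling, and Argk, For and Hsc70-4 were not, since their unscaled counts differ by less than 5-fold. All the symbols in this paragraph were taken from the whole set of 66, after their values were seen.

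Genes with a symbol that were higher in ovaries included Vg, the yolk protein precursor vitellogenin, with 532 sense counts in ovaries and 0 in semen (at least 96.3-fold). Slc35b1, a nucleotide sugar transporter, had 574 and 4. AChE-2, an acetylcholinesterase, had 720 and 11. The nicotinic receptor subunits nAChRa6 and nAChRa7 had 322 and 0, and 45 and 3, and the synaptic adhesion protein Nrx-1 had 172 and 1. For nAChRa6 and Nrx-1 more reads were antisense than sense in ovaries, at 846 and 354. The homeobox transcription factors cad and eve had 110 and 0, and 33 and 0. Of the 22, Vg and Slc35b1 were called under each scaling.

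The gene lists matched few symbols and had few reads. Of the piRNA pathway, aub, a Piwi protein, had 69 sense counts in ovaries and 0 in semen (at least 12.5-fold), and vas, a germline RNA helicase, 50 and 0 (at least 9.05-fold). Neither was called under each scaling, since under table totals the bound for both no longer excluded an equal level, and nanos, the other germline marker matched, had 7 and 1 and was not compared. The gene aub overlaps a FAMAR1 (Tc1-Mariner) entry and the DTX element ms32950 on its own strand, and had 32 antisense counts in ovaries. Whether its reads belong to those TEs was not tested. Of 8 ribosomal protein and elongation factor genes, 4 were compared: Rps14 was higher in semen, with 81 against 13 (11.5-fold, 6.34 to 22.5), under each scaling, while RpLP1, with 40 and 41, and EF1a-F2 were within 5-fold.

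Of 8 respiratory chain and ATP synthase genes, 2 were compared: ATP5G2, a subunit of ATP synthase, had 521 counts in ovaries and 5 in semen (56.6-fold, 24.1 to 175), a call lost under table totals, and CytC had 25 and 1. None of the 5 glutamate receptor gene models was compared, and together they had 3 sense counts in ovaries and 0 in semen. Of 6 sex determination gene models, 1 was compared, GB47026, with 20 and 18. Csd and Fem, which start the female pathway in the bee, had 4 and 1 sense counts in ovaries and 2 and 0 in semen, beside 2344 and 8514 antisense counts in ovaries and 0 in semen. GB45868 had 15 and 1 and was not compared.

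Apart from Vg, markers of other tissues were nearly without sense reads. Of 30 gene models for hexamerins, royal jelly proteins, antimicrobial peptides, troponins and Vg, 1 was compared, Vg. All 30 together had 549 sense counts in ovaries, 532 of them on Vg, and 10 in semen. No histone and no sperm tail gene could be picked by symbol. How much RNA of other cells is in either column was not tested, and fewer cells of a type and less RNA per cell cannot be told apart in pooled tissue.

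**Figure D5:**
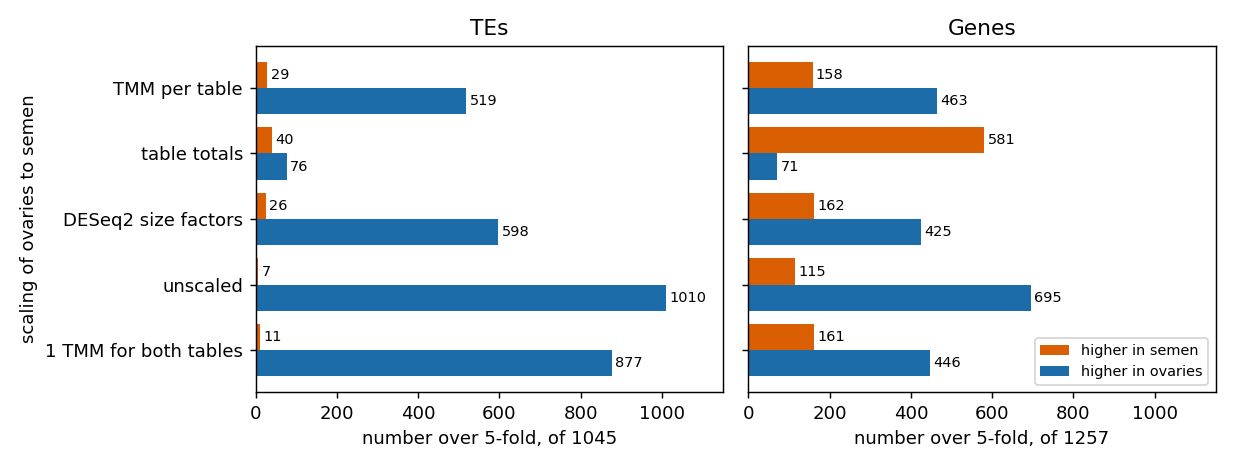
Number of TEs (left, of 1045) and genes (right, of 1257) over 5-fold higher in semen or in ovaries under each of 5 scalings of the ovary column. TEs higher in ovaries range from 76 under table totals to 1010 unscaled, and genes higher in semen from 115 unscaled to 581 under table totals.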

How the data were processed

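Per the methods of the study, small RNA reads were mapped to Amel 4.5, reads of other known RNAs and outside the piRNA length (26 to 31 nt) were removed, and the rest were counted on TEs and whole genes with featureCounts. The deposited values are raw counts, used as the authors gave them, with 1 pooled column per tissue in each of 4 tables. The labels' processing notes name Bowtie 1.2.3, while the methods name CLC Genomics. Whether libraries were summed or averaged, and how reads with several positions were counted, is not given in the sources used here.

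The Semen and Ovaries columns of both sense tables were compared at a minimum of 20 counts in either tissue. Factors came from TMM in edgeR 4.0.16 and size factors from DESeq2 1.42.0 (R 4.3.3), and the rest from Python 3.11.15 with pandas 2.3.3, numpy 2.4.6, SciPy 1.17.1 and matplotlib 3.10.9. A feature was called at over 5-fold, with counts under 3 set to 3. Folds against 0 counts are given as lower bounds, and those against 1 to 3 as observed with an exact binomial interval. The scaling step was tested on simulated data: of 74 changed TEs among 431 and 99 changed genes among 1339, all were recovered and 0 others were called. That simulation let the assumption of TMM hold and cannot show which scale is right.

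Clusters are the 199 of the study's list, shared by at least 1 base. Joined entries carry several copies in 1 name. Symbols come from RefSeq (Amel_HAv3.1) through the gene IDs of the tables, of which 11390 matched, and were used for names only. No sequence is shown, because the genome used was not analysed here. Named features are the 10 with the most counts per tissue and table, the 5 with the largest fold in each direction, 9 features named in earlier accounts, and called members of the gene lists. Other features named were picked after their values were seen. The values of 1 listed gene are not reported here. The members and lists were chosen with earlier results of these data known. Alternatives were other scalings, filters and folds, and leaving out overlapping or leading features.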

Additional observations from a re-analysis of the deposited data

How the results depend on the processing

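Scaling by table totals gave 76 TEs and 71 genes higher in ovaries and 581 genes higher in semen, and turned R2Amel to 1.02 (log2 of semen over ovaries). Unscaled counts gave 7 TEs higher in semen, 1010 TEs and 695 genes higher in ovaries. A single TMM factor for both tables gave 11 TEs higher in semen and 877 in ovaries. With at least 5 counts in either tissue, 76 TEs and 252 genes were higher in semen, and with no filter 92 and 252. With at least 100 counts, 5 TEs and 39 genes were higher in semen and 205 genes in ovaries. With 20 counts in both tissues, 13 TEs and 20 genes were higher in semen, and 26 TEs and 11 genes in ovaries, fewer because fewer were compared. Folds over 2 and over 10 gave 757 and 269 genes higher in ovaries. Without TEs that overlap a gene, 16 TEs were higher in semen, and without genes that overlap a TE, 72 genes were higher in semen and 128 in ovaries. The other 20 alternatives stayed within 1.5 times the count.

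Without the leading feature, the semen shares were 8.05% on TEs, 12.8% in class II elements, 71.9% in listed clusters, 9.78% on the next TE and 6.08% on the next gene. Those of ovaries were 92.9%, 6.99%, 99.7%, 14.4% and 52.2%. Without TEs that overlap a gene, the class II and cluster shares were 10.9% and 80.3% in semen and 5.54% and 99.8% in ovaries. Of 50 named and compared features, 47 were called and 41 of these under each scaling. For 3, aub (GB54204), vas (GB42306) and GB43331, the lower bound did not exclude equality under table totals.

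No paired analysis was possible because the tables give no replicate columns. In semen, 80687 of the 90962 TE counts lay on ms43364, so the other TEs rest on few reads.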
